A study of Arabidopsis thaliana with 12 samples.

Results

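PIF3, PIF5, COP1, LZF1 and FAR1 are 5 genes of light signalling in Arabidopsis thaliana, and each had 1 splicing event in the authors' deposited table for chilled wild-type seedlings. The 5 genes were taken by their locus from all events in the 3 deposited event tables, which list 1911 distinct events in 1502 genes. They were chosen by the deposited calls, as light signalling genes that are listed for Col-0 and that stand in the authors' list of SmEb-dependent genes, so being listed is a description of them and carries no test.

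The libraries came from whole seedlings at an age of 12 days, either wild type (Col-0) or mutant for smeb-1 or smeb-2. Both alleles carry a lesion in SmEb (AT2G18740), a gene for an Sm core protein of the spliceosome. The labels give Col-0 as the background of all genotypes and do not say what the lesions are. Each of the 3 genotypes has 2 libraries kept at 22 °C for 24 h and 2 kept at 4 °C for 24 h, 12 in all, although the treatment protocol calls the control 0 h at 4 °C. The deposited tables are headed for smeb at 22 °C, for chilled smeb and for chilled Col-0; they do not state which groups were set against each other, how the 2 alleles were combined or whether replicates came from separate cultures. They give for each event a kind, a position, a p-value headed as adjusted and a false discovery rate (FDR). No level per library, read count, depth, effect size or direction is among these values, so an event is described as listed, never as higher or lower, and no error or test across libraries could be given. SmEb itself had 0 events in the 3 tables, which says nothing of its level.

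Seedlings read red and far-red light through phytochromes and blue light through cryptochromes. Activated phytochromes enter the nucleus and bring about the removal of PIF proteins, bHLH transcription factors that promote growth in darkness and in shade. COP1, a ubiquitin ligase that works with SPA proteins, marks factors that promote de-etiolation for degradation in the dark, among them the bZIP factor HY5. LZF1, also named BBX22, is a B-box protein that acts with HY5 and is itself a substrate of COP1. FAR1 and its relative FHY3 are transcription factors derived from transposases and activate genes needed for phytochrome A to accumulate in the nucleus. Several of these proteins, the PIFs and COP1 above all, are also known to act in temperature responses.

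The sequences shown first are those at which the alternative forms part, read on the strand of each gene from the reference genome (TAIR10.1). The PIF3 and FAR1 events each pit 2 donors against each other, a donor being the 5′ splice site at which an intron begins. In these 4 stretches of 30 bases the GT that opens the intron is in capitals, and the bases before it belong to the exon. The PIF3 donors are from chr1:3076734-3076763 and chr1:3076794-3076823, and the FAR1 donors from chr4:8614259-8614288 and chr4:8614330-8614359, all on the plus strand.
PIF3 upstream donor: ctttaatactttgagGTtctcactctctct
PIF3 downstream donor: taccctttttctcagGTcagctacgatgat
FAR1 upstream donor: ggccgagaaaatacaGTaaaaagccctcac
FAR1 downstream donor: catttgaattctcagGTtttctcttaagat
In both genes the exon bases before the downstream donor end in cag. Those before the upstream donor end in gag in PIF3 and in aca in FAR1.

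The PIF5 and LZF1 events concern a short stretch that is kept or left out, which is printed whole in capitals with 20 bases on each side. The PIF5 stretch is on the minus strand of chr3:21829067-21829185, and the LZF1 exon on the plus strand of chr1:29568245-29568344.
PIF5 stretch: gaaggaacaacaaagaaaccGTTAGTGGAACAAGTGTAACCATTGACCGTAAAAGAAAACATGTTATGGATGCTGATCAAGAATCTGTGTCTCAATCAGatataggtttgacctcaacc
LZF1 cassette exon: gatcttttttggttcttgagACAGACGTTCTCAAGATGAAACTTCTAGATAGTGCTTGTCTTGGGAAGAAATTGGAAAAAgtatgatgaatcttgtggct
The PIF5 stretch begins with GT and ends with AG, as an intron does, and the LZF1 exon is flanked by ag and gt.

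The COP1 event sets 2 acceptors against each other, the 3′ splice sites at which an intron ends. Both lie on the plus strand, in chr2:13980613-13980701 and chr2:13981022-13981071. The AG that closes the intron is in capitals in each, and so is the first stop codon in frame behind the upstream acceptor.
COP1 upstream acceptor: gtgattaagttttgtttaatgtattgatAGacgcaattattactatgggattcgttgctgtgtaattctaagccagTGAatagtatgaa
COP1 annotated acceptor: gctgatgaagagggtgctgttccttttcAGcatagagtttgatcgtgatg

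Of the 3 tables, only that of Col-0 under chilling lists the 5 genes, with 1 event each. The table for smeb under chilling and that for smeb at 22 °C hold 0 events of any of them, and 0 events filed under another gene overlap their loci in any table. The background in Col-0 is 1339 events listed of 9710 tested (13.8%), a number of tests recovered from the deposited p-values and FDR values, or 4.68% of the 24197 genes with an annotated intron. In chilled smeb 13.2% of 10308 tested events and 4.52% of these genes were listed, and at 22 °C 0.319% of 10657 events and 0.112% of the genes. The authors' SmEb-dependent list (394 genes) holds all 5 genes, and their SmEb-independent list (352 genes) holds 0. Membership of the first list follows from being listed for Col-0 and not for smeb, which the choice of the genes fixed. Of other light signalling genes, the second list holds only those listed for smeb and not for Col-0. Those listed for both are in neither list. The 0 therefore follows from the choice of the genes too. Absence from the smeb table leaves unknown whether a gene was tested there, and 334 ranks up to that of the last smeb event listed are not in that table. Whether splicing of any of the 5 genes differed between genotypes cannot be read from these tables, since the groups compared are not stated.

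The 5 events differ widely in FDR. The retained intron of PIF5 had 0 for both its p-value and its FDR in the authors' deposited table, as did 247 events in all and 87 of its 286 retained introns. The cassette exon of LZF1 had an FDR of 2.23e-05 (p = 9.85e-07), and 424 events had a lower p-value in the authors' deposited table, while 123 of its 284 cassette exons had a lower FDR. The alternative 5′ splice site of PIF3 had an FDR of 0.00705 (p = 0.000651, with 892 events lower in the authors' deposited table). The alternative 3′ splice site of COP1 had an FDR of 0.0126 (p = 0.00127, with 978 lower in the authors' deposited table). The alternative 5′ splice site of FAR1, at an FDR of 0.0272 (p = 0.00324, with 1150 lower in the authors' deposited table), was the nearest to the limit of the table, whose highest FDR is 0.050. PIF5 and LZF1 have the lowest FDR values of the 5, and COP1 and FAR1 are the 2 that an FDR limit of 0.01 would leave out.

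**Figure D1:**
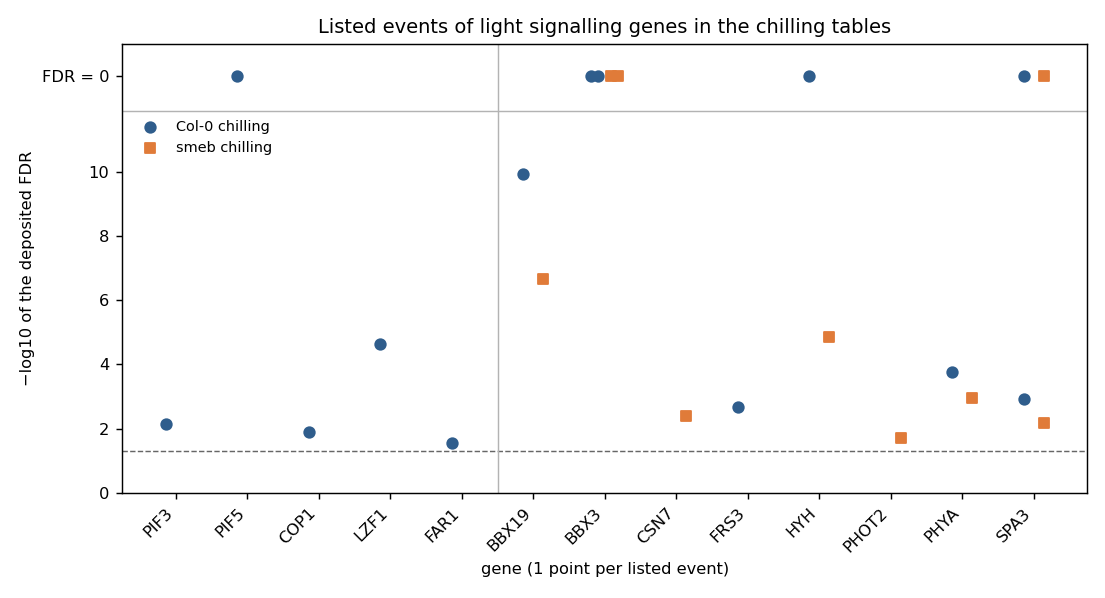
Listed events of the 5 genes (left of the vertical line) and of the other listed light signalling genes (right), as −log10 of the deposited FDR; events with an FDR of 0 are set in a band of their own, circles are the Col-0 table under chilling, squares the smeb table under chilling, and the dashed line is an FDR of 0.05. The 5 genes on the left have a circle each and no square, which their choice fixed, while HYH, BBX3, BBX19, PHYA and SPA3 have both.

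By position the events fall into 2 groups, those of the 5′ leader and those of the coding span. The PIF3 and FAR1 events lie in the leader, upstream of the start codon, and leave the coding sequence as it is. The events of PIF5, COP1 and LZF1 lie between the start and the stop codon. Of the events listed for Col-0, 24.4% of 266 alternative 5′ splice sites lie in the leader, as do 16.5% of 388 alternative 3′ splice sites, 26.2% of 286 retained introns and 22.5% of 284 cassette exons. For PIF3, FAR1 and LZF1 both forms are annotated transcripts, for COP1 1 of the 2 acceptors is annotated, and for PIF5 only the form that keeps the stretch. Both boundaries are annotated in 41.4% of the alternative 5′ splice sites of the Col-0 table and in 38.7% of the alternative 3′ splice sites. All 5 genes have more than 1 annotated transcript, from 2 in COP1 and LZF1 to 6 in PIF3; so have 84.4% of all genes listed for Col-0 and 45.5% of all genes with an intron.

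**Figure D2:**
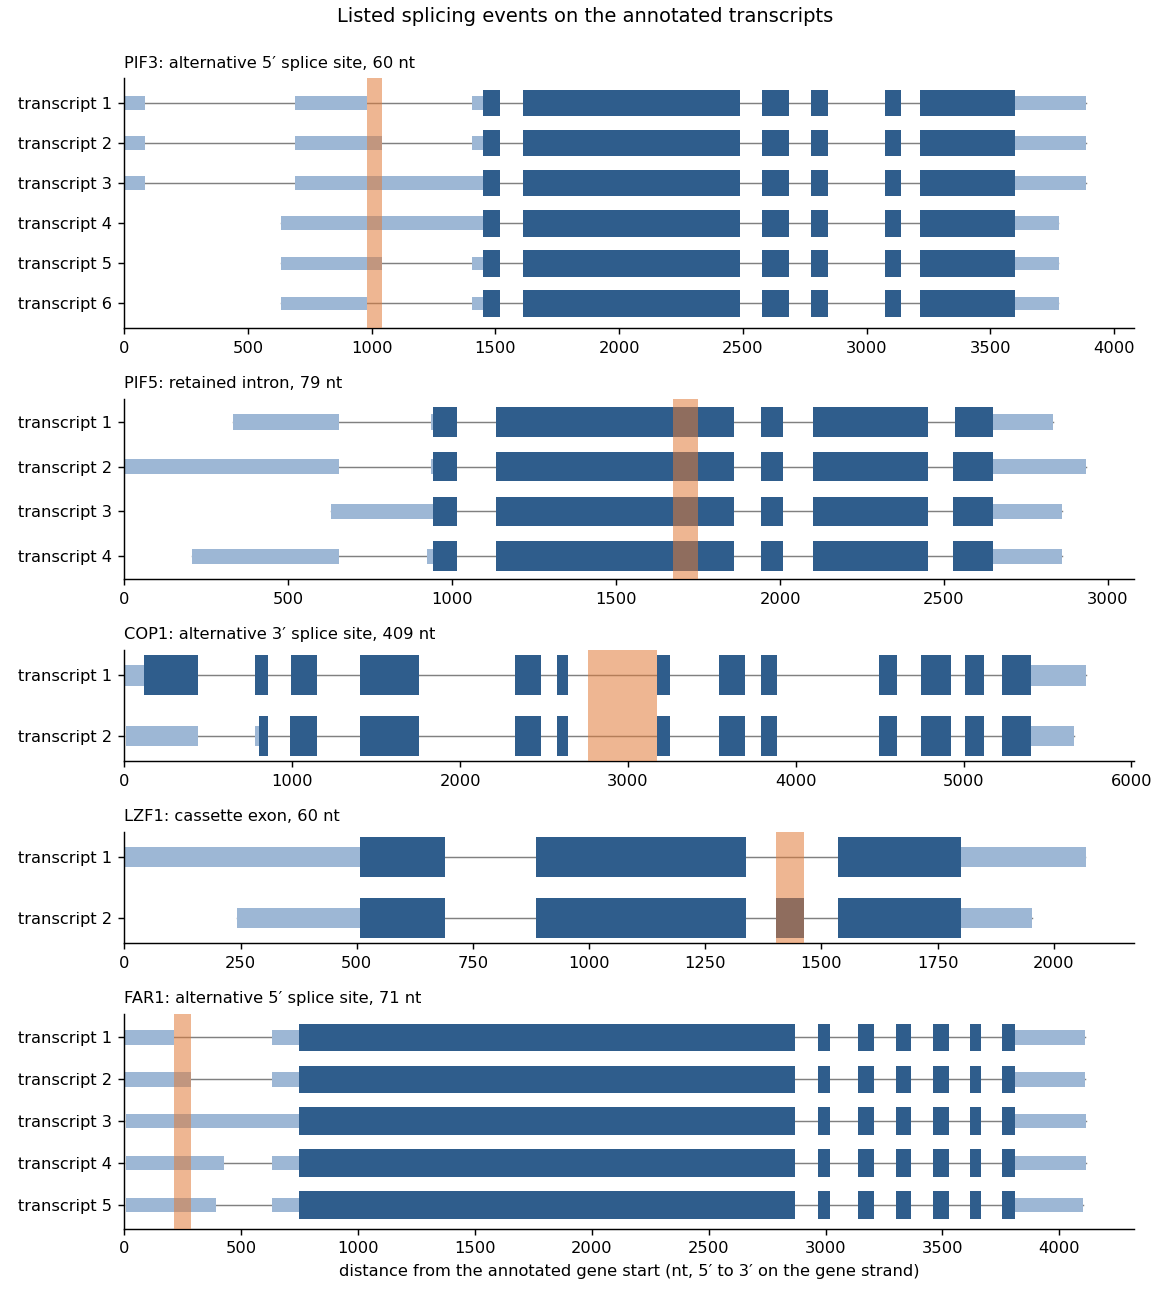
Annotated transcripts of the 5 genes, drawn as distance in nt from the annotated gene start on the gene strand; pale boxes are exons, dark boxes coding sequence, lines introns, and the orange band the stretch that differs between the 2 forms of the listed event. The bands of PIF3 and FAR1 lie before the first dark box, that of PIF5 inside a coding exon, that of COP1 inside an intron and that of LZF1 on an exon of 1 of its 2 transcripts.

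PIF3 (AT1G09530, chromosome 1, 3075768 to 3079654) is the founding member of the PIF family and binds phytochromes A and B. Its event is a choice between donors after base 3076748 and after base 3076808, so the longer form has 60 nt more leader, 3076749 to 3076808. The upstream donor is used in transcripts AT1G09530.1 and AT1G09530.6, and the downstream one in AT1G09530.2 and AT1G09530.5. In AT1G09530.3 and AT1G09530.4 the intron is kept. In the transcripts that begin with a separate first exon (AT1G09530.1, AT1G09530.2 and AT1G09530.3), the leader measures 418 nt with the upstream donor, 478 nt with the downstream donor and 842 nt with the intron kept. In those that start further downstream (AT1G09530.6, AT1G09530.5 and AT1G09530.4) it measures 391, 451 and 815 nt. Every form of PIF3 encodes the same 524 codons. The leader holds 5 upstream ATG triplets in each of the 4 spliced forms, and 10 where the intron is kept; every one of them opens a reading frame that ends before the start codon, the longest of them 70 codons. The 60 nt hold 0 ATG, and no upstream reading frame runs across the donor. The 2 spliced forms therefore differ in leader length and share their upstream reading frames, with 1, 3, 8, 12 and 70 codons in both AT1G09530.1 and AT1G09530.2.

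FAR1 (AT4G15090, chromosome 4, 8614060 to 8618173) has an event of the same build. Donors after bases 8614273 and 8614344 compete, and the longer form has 71 nt more leader. The upstream donor belongs to AT4G15090.1 with a leader of 327 nt, and the downstream one to AT4G15090.2 with 398 nt. Donors after 8614449 and 8614486 are annotated too, in AT4G15090.5 and AT4G15090.4, with leaders of 496 and 533 nt, and AT4G15090.3 keeps the whole intron in a leader of 739 nt. All of them encode 827 codons. Both forms of the listed event have 3 upstream ATG triplets. For 2 of these the reading frame, of 8 and 19 codons, ends before the start codon, and the third runs past the start codon in another frame. The forms that are not part of the listed event have 5, 6 and 10 upstream ATG triplets. As in PIF3, the added stretch holds 0 ATG and no upstream reading frame runs across the donor.

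PIF5 (AT3G59060, named PIL6 in the reference, chromosome 3, 21827905 to 21830837) is a close relative of PIF3 that binds phytochrome B and promotes elongation and shade responses. Its event is filed as a retained intron at 21829086 to 21829166, a span that includes 1 exon base on each side of a stretch of 79 nt. No annotated transcript of the gene splices this stretch: in all 4 of them it lies inside a coding exon, exon 3 of 6 in AT3G59060.2. It begins after 203 of the 444 codons of the reading frame of AT3G59060.2. With the stretch spliced out, 79 nt not being a multiple of 3, the frame changes and meets a stop codon (TAG) after 204 codons, 521 nt before the last exon junction. In plants, stop codons well upstream of a later junction are a known mark of transcripts that nonsense-mediated decay removes, and its action on these transcripts was not measured. Among the 286 retained introns of the Col-0 table, 14 (4.90%) lie like this one inside an annotated coding exon and read GT to AG on the gene strand. They are 41 to 110 nt long with a median of 83.5 nt, 2 of the 14 have a length that is a multiple of 3, and 6 are at an FDR of 0 by the authors' deposited table. The call says that the use of this stretch differed between the groups compared, and not in which group it was kept more often.

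COP1 (AT2G32950, chromosome 2, 13977881 to 13983609) carries a RING finger, a coiled coil and, in its C-terminal part, WD40 repeats that hold its substrates. Its event lies at intron 6, which runs from 13980525 to 13981051 (527 nt) between exons 6 and 7 of 13. The annotated acceptor is followed by base 13981052, and the upstream one, not annotated, by base 13980643. Use of the upstream site cuts the intron to 118 nt and adds 409 nt to exon 7. The annotated frame of AT2G32950.1, of 675 codons, has 375 complete codons before this junction. With the upstream acceptor the frame goes on for 16 codons and meets the stop codon TGA at 13980689 to 13980691, which leaves 391 codons in all. That stop codon lies 1090 nt before the last exon junction, and the frame up to it holds none of the last 300 codons of the annotated protein. For Col-0, 57.2% of the listed alternative 3′ splice sites have 1 annotated boundary, as here.

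LZF1 (AT1G78600, chromosome 1, 29566863 to 29568931) has B-box zinc fingers at its N-terminus. The cassette exon, 29568265 to 29568324 (60 nt), lies in an intron of 198 nt (29568201 to 29568398) of AT1G78600.1 and is an exon of AT1G78600.2. With the exon skipped the reading frame has 299 codons, and with it 319. The 20 added codons follow codon 212, and the frame runs on to the same stop codon (TAG), so that both forms encode a protein with the same start and end. Among the events of the coding span this is the one whose length is a multiple of 3. Of the 284 cassette exons of the Col-0 table, 38.0% are likewise annotated exons that an annotated intron of the gene spans.

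**Figure D3:**
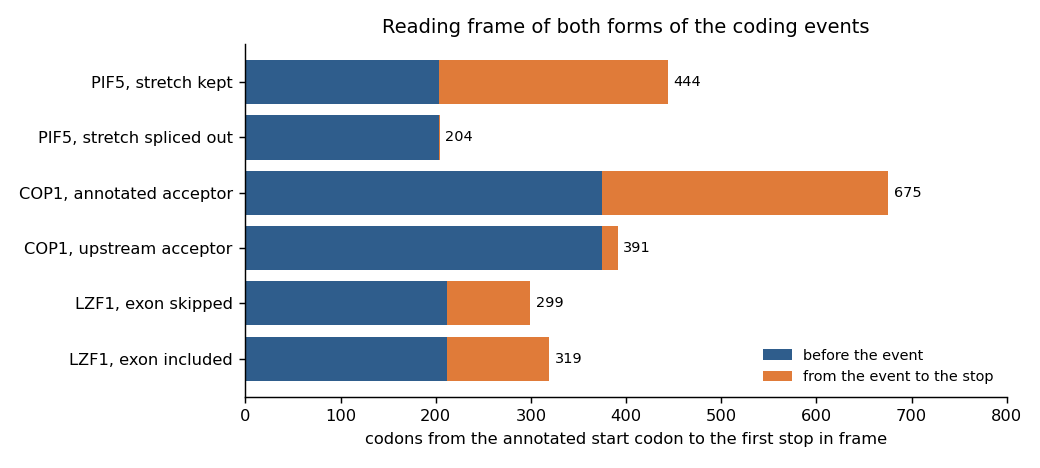
Codons from the annotated start codon to the first stop codon in frame for both forms of the 3 coding events, split at the place where the event begins. The frame of PIF5 drops from 444 to 204 codons with the stretch spliced out and that of COP1 from 675 to 391 with the upstream acceptor, while that of LZF1 goes from 299 to 319 with the exon included.

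The splice sites of the events were scored against 129275 annotated introns that read GT to AG, as the sum over positions of the log2 ratio of a base's frequency to 0.25, in bits. Donors were scored over 3 exon and 6 intron bases (median 7.08 bits, 5th to 95th percentile 2.99 to 10.02), and acceptors over 14 intron bases and 1 exon base (median 7.75 bits, 2.56 to 12.09). All 10 sites of the 5 events score below the median of their type, as do 73.2% of 2448 sites of the same kinds of events in the Col-0 table. The donor inside the PIF5 exon is the lowest, at 3.04 bits, above 5.18% of annotated donors, and its acceptor has 5.57 bits, above 22.8% of acceptors.

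PIF3 and FAR1 are alike in their scores too. The upstream donor has 4.06 bits in PIF3 and 4.08 bits in FAR1, above 10.5% and 10.6% of annotated donors. The downstream donor is the higher one in both, with 6.32 and 5.87 bits, above 35.4% and 29.7%. The further annotated donors of FAR1 have 6.97 and 2.96 bits. In COP1 the upstream acceptor, with 6.60 bits, and the annotated one, with 7.34 bits, stand above 34.4% and 44.2% of acceptors, while the donor they share has 8.29 bits. The LZF1 exon has an acceptor of 4.65 bits, above 14.9% of acceptors, and a donor of 6.88 bits. The sites that join when it is skipped score higher, the donor of the exon before it with 8.46 bits and the acceptor of the exon behind it with 12.04 bits, above 94.8% of acceptors. These scores describe the letters of the sites and say nothing of their use in either condition.

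**Figure D4:**
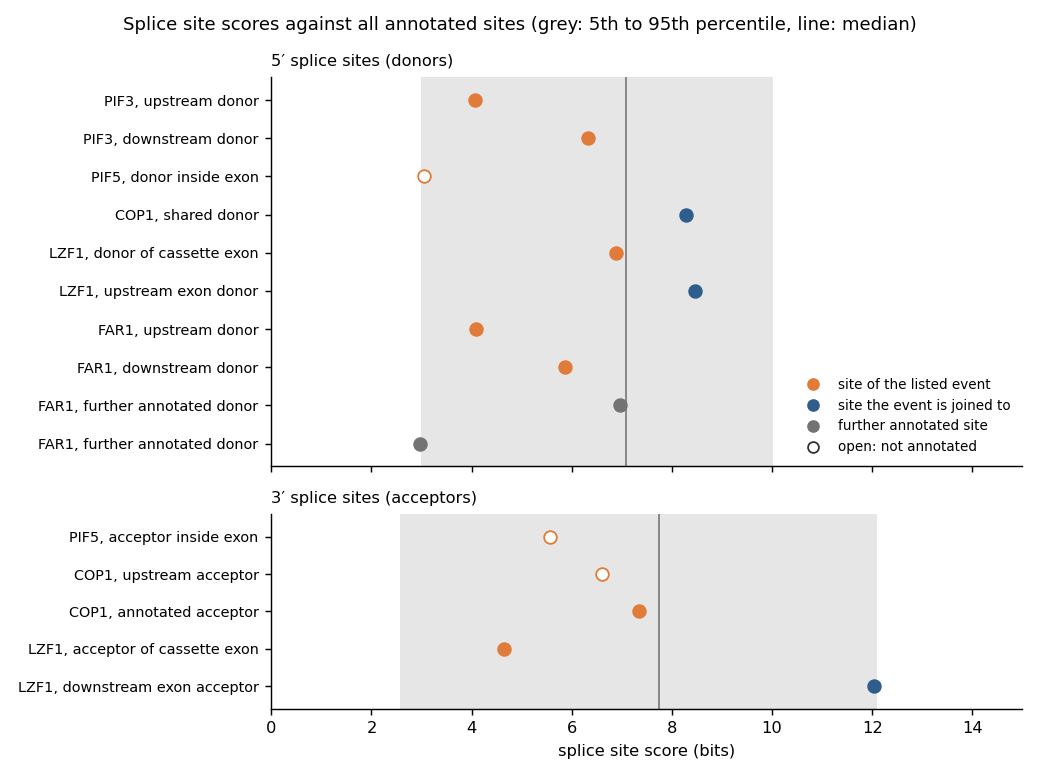
Scores in bits of the donors (top) and acceptors (bottom) of the 5 events (orange), of the sites they join (blue) and of further annotated FAR1 donors (grey); open circles are sites that are not annotated, the grey area is the 5th to 95th percentile of all annotated sites and the line their median. Every orange point lies left of the median, and the blue points of COP1 and LZF1 lie right of it. Sites joined to were scored for these 2 genes only, so the acceptors that the PIF3 and FAR1 donors join are not shown. How such sites score over all events of Col-0 was not computed.

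The 5 genes were set beside a list of 74 light signalling genes, written from textbook knowledge with earlier results of these data known. The other 69 are photoreceptors, PIF relatives, COP1 partners, B-box proteins and FAR1 relatives. In Col-0 6 of these 69 (8.70%, against 4.68% of genes with an intron) were listed, and in chilled smeb 7 (10.1%, against 4.52%). The 24197 genes with an intron outnumber the tested events (9710 in Col-0 and 10308 in chilled smeb), so many of them had none tested. Whether light signalling genes are listed more often than other genes was not tested. At 22 °C 0 of the 74 were listed. Of the 8 other genes listed under chilling, 5 were in both tables, 1 was listed for Col-0 and not smeb, and 2 for smeb and not Col-0. Over all genes, 1140 were listed for Col-0 and 1097 for chilled smeb, with 1502 in any of the 3 tables. Being in both chilling tables was therefore common among all listed genes and is not particular to light signalling. In the PIF class PIF3 and PIF5 were listed and 0 of the other 8. FRS3, a relative of FAR1, was the one listed for Col-0 and not smeb. Its retained intron of 147 nt lies in the leader and has, in the authors' deposited table, an FDR of 0.00216, and the gene is in the SmEb-dependent list too.

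Genes that work next to the 5 in the pathway were listed in both genotypes, and 6 of their events have identical positions in both tables. Identical positions were common over all events, with 1339 listed for Col-0, 1359 for chilled smeb and 1911 distinct ones in the 3 tables. The absence of the 5 from the smeb table was fixed by their choice and makes no contrast with these neighbours. SPA3, which forms the ubiquitin ligase with COP1, had an alternative 5′ splice site (18 nt, 5170172 to 5170190 on chromosome 3), for which the authors' deposited tables give 0 as the FDR in Col-0 and in smeb. SPA3 also had an alternative 3′ splice site with 1 acceptor, at 5171643, common to both of the authors' deposited tables. The other acceptor lies 30 nt from it in the Col-0 event (FDR 0.00120) and 11 nt from it in the smeb event (FDR 0.00667). HYH, the closest relative of HY5, had an alternative 3′ splice site of 45 nt, and the authors' deposited tables give its FDR as 0 for Col-0 and 1.38e-05 for smeb. BBX3, a relative of the flowering factor CONSTANS, had an alternative 5′ and an alternative 3′ splice site, each with an FDR of 0 in both of the authors' deposited tables; its alternative 3′ splice site overlaps the neighbouring gene AT3G02370, so its gene is uncertain. BBX19, like LZF1 a protein with B-boxes, had a multiple cassette event of 113 nt (FDR 1.18e-10 in Col-0 and 2.22e-07 in smeb in the authors' deposited tables).

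Photoreceptors were listed as well. PHYA, the gene of phytochrome A, whose nuclear accumulation needs FAR1, had an alternative start of 81 nt in its leader, and the authors' deposited tables give it an FDR of 0.000173 for Col-0 and 0.00108 for smeb. PHOT2, a blue-light receptor that steers chloroplast movement, was listed for smeb and not Col-0, with an alternative 5′ splice site of 5 nt (FDR 0.0196 in the authors' deposited table). CSN7, a subunit of the COP9 signalosome, was the other such gene, with a retained intron of 595 nt (FDR 0.00394 in the authors' deposited table). Both are in the authors' SmEb-independent list. Being listed in 1 genotype does not show a difference between genotypes, for these genes as for the 5.

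The authors' deposited table of gene ontology terms for the SmEb-dependent genes holds all 5 genes under 1 term, response to red or far red light, and no other of its 16 terms names any of them. The term has 9 of 318 annotated list genes (2.83%), against 226 of 21859 in the authors' background (1.03%). The authors' deposited table gives it a p-value of 0.00604, an adjusted p of 0.232 and a q-value of 0.210, and places it 12th by p-value, so it did not pass an adjusted limit of 0.05. The same 5 genes make up 5 of the 9, and the term is therefore no evidence beside them.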

How the data were processed

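RNA of whole seedlings was sequenced in 12 libraries of 6 groups, and the values used here are the deposited tables of called splicing events, in which nothing is given per library. The build TAIR10 and the tools TopHat2 2.0.13 and Trimmomatic 0.32 are named per the submitters' processing notes; how events were called, tested and filtered, and whether strand was used, is not given in the sources used here. Each event has a p-value and an FDR that the authors deposited, per the file headers; the first is headed as adjusted. The tissue label could not be checked, since the tables hold no expression. The depth per sample, and so the precision, is unknown.

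The 5 genes and the list of 74 light signalling genes were chosen with earlier results of these data known; 73 of the 74 symbols match the reference by symbol or synonym. Every event of the 5 genes is named, as is every gene of the list that is in any event table. Repeated rows were counted once (21 of the 55 rows at 22 °C). The number of tested events is the smallest for which p × tests / FDR is a whole rank (within 0.0001) for the highest share of events with p above 0: 85.3% in Col-0, 88.4% in chilled smeb and 87.0% at 22 °C. In 3 of 3 simulated tables this number was recovered, but these had no unlisted ranks and no p-values set to 0. The deposited tables have both, so the simulation does not check the recovery there.

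Positions were read on RefSeq's TAIR10.1 with Python 3.11.15 and numpy 2.4.6. Its coordinates fit the tables: 216 of the 286 Col-0 retained introns (75.5%) are annotated introns once 1 base is taken off each end. Alternative donors are given by the last exon base, acceptors by the first. Frames were read from the annotated start codon. The authors' tables allow no test across libraries, so the design's alternatives by library could not be run. Alternatives were stricter FDR limits, repeated rows, rebuilt lists, looser matching of positions and other backgrounds.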

Additional observations from a re-analysis of the deposited data

How the results depend on the processing

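At an FDR under 0.01 the events of the 5 genes in Col-0 numbered 3 (PIF3, PIF5 and LZF1), and under 0.001 they numbered 2; with an FDR under 0.01 asked of the Col-0 event, 3 of the 5 genes would be SmEb-dependent. Repeated rows, lists rebuilt from the chilling tables and looser matching of positions left the counts of the 5 genes as reported. At an FDR under 0.001 the listed light signalling genes numbered 7 in Col-0 and 4 in chilled smeb, the latter all outside the 5 (an alternative for those genes chosen after seeing the data). The share of genes listed fell to 4.04% of protein-coding and 3.01% of all annotated genes in Col-0, to 3.91% and 2.89% in chilled smeb, and to 0.0712% of all annotated genes at 22 °C. No paired analysis was possible because the tables hold no values per library; for the same reason no library could be left out.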

Other observations

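The other 4 genes under the term response to red or far red light were listed for Col-0 alone. The term was counted in the SmEb-dependent list, membership of which follows from being listed for Col-0 and not for smeb. The absence of these 4 genes from the chilled smeb table was therefore fixed by that list and carries no test. LHCB2.1 (AT2G05100), a light-harvesting protein of photosystem II, had an annotated intron of 239 nt called as retained, within the coding span (FDR 1.10e-11 in the authors' deposited table). AT4G33980, which the files describe as an unknown protein, had a cassette exon of 184 nt (FDR 0.000297 in the authors' deposited table); it is not an annotated exon that an annotated intron spans. AT1G53380 had an alternative start of 145 nt (FDR 0.0152) and AT5G66250 a retained annotated intron of 332 nt (FDR 0.0337), both in the leader and both FDR values from the authors' deposited table.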
